A study of Mus musculus with 16 samples.

Results

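CAF2 is 1 of 4 mouse mammary fibroblast lines of the series that came from carcinoma. Its 2 arrays, 1 for each culture, were compared with the 4 arrays of the carcinoma lines CAF3 and CAF4, so 6 of the 16 arrays of the series make up the comparison. The lines were read from the sample titles, and the culture number in the same titles was used as a block. CAF2, CAF3 and CAF4 carry the same labels: the FVB/N background strain, the carcinoma stage of the MMTV-PyMT model, in which a mammary tumour virus promoter active in mammary epithelium drives the polyoma middle T oncogene, immortalization by human papillomavirus E6, and no treatment. All were kept for 72 h in DMEM with 10% FBS on a deformable gel of Matrigel and collagen I before RNA was taken. The other 10 arrays hold the normal gland lines NF2 and NF3, the hyperplasia line HpAF1, the adenoma line AdAF1 and the carcinoma line CAF1, immortalized and cultured likewise. E6 directs the p53 protein to degradation, and this holds for every line compared. The sources used here do not give whether the 3 lines came from separate mice, so each p-value measures the spread between cultures, with 1 line set against 2, and not the spread among carcinoma lines in general.

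Fibroblasts of a tumour can be contractile, secretory or both. In the contractile state, smooth muscle actins, smooth muscle myosin and their partners are transcribed under serum response factor (SRF), which binds a DNA element called the CArG box, and the same genes mark the smooth muscle cells and pericytes that wrap vessels. In the secretory state, fibroblasts release chemokines, proteases and growth factors such as those of the IGF family. Imprinted genes are a further class that matters below: they are read from a single parental copy, some of them only in certain tissues. Several of them restrain or promote growth.

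Levels are normalized log2 intensities of Illumina bead arrays, and a difference is the CAF2 mean minus the mean of CAF3 and CAF4 on that scale. A probe was tested when its detection p was under 0.01 on at least 2 of the 16 arrays, and a difference passed at an adjusted p under 0.05 in limma. Detected probes ranged from 7693 to 9823 over the 6 arrays. Across the tested probes, which share an array and are not replicates, the 2 cultures correlated at 0.962 for CAF2, 0.975 for CAF3 and 0.963 for CAF4, and line means at 0.937 (CAF2, CAF3), 0.953 (CAF2, CAF4) and 0.959 (CAF3, CAF4). Precision is limited by how few arrays each line has. Of 15 fibroblast identity genes on the array, 11 were detected on each CAF2 array and 12 on each CAF3 and CAF4 array, and Cd34, Fap and Postn were detected on none of the 6. Of 20 mammary epithelial markers, keratins and Cdh1 included, 19 were detected on none of the 6 arrays and at most 1 on any of them, and 10 of 13 leukocyte markers, Ptprc included, were detected on none.

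CAF2 differed from the mean of CAF3 and CAF4 in 798 of 10453 tested probes (7.63%), 387 of them higher (3.7%) and 411 lower (3.93%). By gene, taking the brightest probe of each, 572 of 7454 genes passed (7.67%), with 287 higher (3.85%) and 285 lower (3.82%) in CAF2. The size of these differences had a median of 1.14 and ran from 0.50 to 5.69, beside a median of 0.00 for all tested genes. Set against each line on its own, 1006 probes differed from CAF3 (9.62%) and 385 from CAF4 (3.68%), while CAF3 and CAF4 differed from each other in 399 (3.82%). A total of 158 genes (2.12%), 80 higher (1.07%) and 78 lower (1.05%), passed against CAF3 and against CAF4 in the same direction, and the genes with the largest changes below come from these. By probe this count was 229 (2.19%), with 114 higher (1.09%) and 115 lower (1.1%), and leaving out a culture brought it to between 89 and 151. Without CAF2 culture 1 the 798 probes became 178, without CAF2 culture 2 they became 392, without CAF3 culture 1 453, without CAF3 culture 2 474 and without CAF4 culture 2 479. Scaling arrays to a common median in place of quantile normalization moved the median of all probes to -0.23 and gave 156 higher and 404 lower probes (27.9% higher, beside 48.5%).

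**Figure D1:**
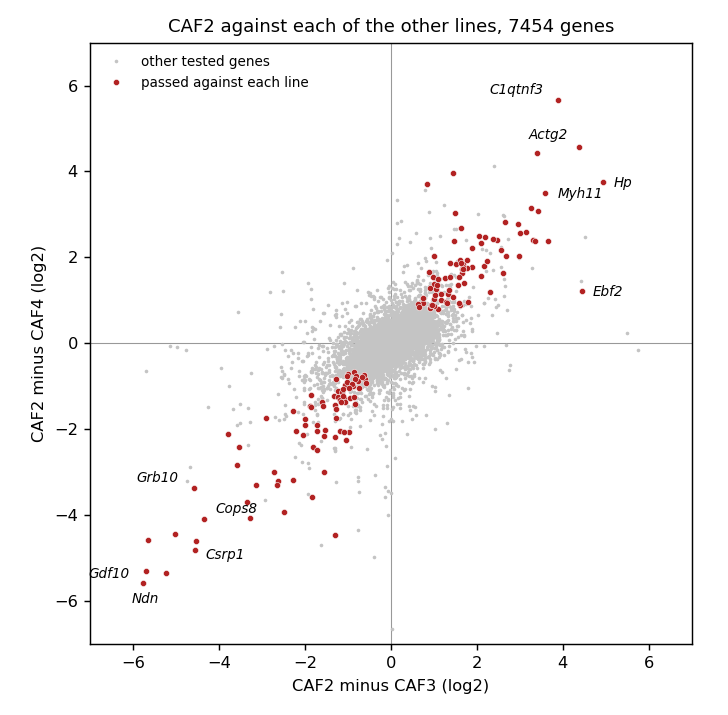
Difference of CAF2 from CAF3 (horizontal axis, log2) and from CAF4 (vertical axis, log2) for the 7454 tested genes, each a point; the 158 genes that passed against each line are in red. Both axes use the same CAF2 arrays, so points near the diagonal are partly a matter of construction; Ndn lies at -5.79 and -5.59, C1qtnf3 at 3.90 and 5.68, and Ebf2 far from the diagonal at 4.45 and 1.22.

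The genes with the largest rise in CAF2 included several of smooth muscle and of vessel walls. Actg2, the smooth muscle gamma actin, stood at 12.53 and 12.14 in the CAF2 cultures; CAF3 had 8.76 and 7.13, and CAF4 had 8.06 and 7.44. Both CAF2 arrays lay above the other 14 arrays of the series, and the difference was 4.48 (SE 0.52, adjusted p = 0.000533), or 22.4-fold. A high level of Actg2 was not particular to CAF2. AdAF1 (11.15 and 11.23) and CAF1 (10.67 and 10.55) also lay above CAF3 and CAF4. Myh11, the smooth muscle myosin heavy chain, was at 8.66 and 7.76 in CAF2 and between 4.61 and 4.81 in CAF3 and CAF4, where it was detected on 0 of 4 arrays. Its level was at least 4.42-fold higher in CAF2 (adjusted p = 4.68e-05). Here and below, "at least" sets the mean of the detected side against the detection floor of the arrays on which the probe was not detected. Mcam, an adhesion molecule of pericytes and endothelium, was at 10.23 and 8.76 in CAF2 and between 4.81 and 6.64 in the others, a difference of 3.91 (SE 0.45, adjusted p = 0.000508), with detection on 1 of these 4 arrays. Hp, Stxbp2 and Cyp26b1, given below, were likewise detected on 1 of 4. Mrvi1, a target of cGMP-dependent kinase in smooth muscle, was higher by 3.02 (SE 0.33). Eln, which encodes tropoelastin, was at 8.72 and 7.46 in CAF2 and was detected on 0 of 4 CAF3 and CAF4 arrays, at least 4.07-fold higher (adjusted p = 0.000768).

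Among genes with a name, the largest rise was that of C1qtnf3, a secreted protein of the C1q and TNF family, at 11.31 and 10.52 in CAF2. CAF3 had 7.12 and 6.91 and CAF4 had 5.40 and 5.08. The difference was 4.79 (SE 0.69, adjusted p = 0.00198). It was detected on 2 of 4 CAF3 and CAF4 arrays, so the size depends in part on values near background. Hp, the haemoglobin-binding acute-phase protein haptoglobin, was at 10.57 and 9.71 in CAF2 and at 5.09, 5.31, 5.09 and 7.67 in CAF3 and CAF4, where culture 2 of CAF4 stood apart from the other 3 arrays. Its difference was 4.35 (SE 0.56, adjusted p = 0.00101). Clu, the secreted chaperone clusterin, was detected on 0 of 4 CAF3 and CAF4 arrays and was at least 5.5-fold higher in CAF2 (adjusted p = 0.000272). Clu was not highest in CAF2, since HpAF1 had 12.47 and 12.38 against 9.28 and 7.76. Ebf2, a transcription factor of stromal and adipocyte precursors, was at 9.34 and 9.21 in CAF2, 8.06 and 8.05 in CAF4 and 4.83 on both CAF3 arrays, so that the lines formed 3 separate levels and CAF3 differed from CAF4 as well (-3.22, adjusted p = 4.47e-05). Cyp26b1, an enzyme that breaks down retinoic acid, was higher by 2.87 (SE 0.36). The matrix glycoprotein Tinagl1 was higher by 3.25, the vesicle fusion regulator Stxbp2 by 3.20 and 4930486L24Rik by 2.87. The carbonyl reductase Cbr2 was at least 4.33-fold and Tmem204 at least 3.14-fold higher. Of these 15 genes, 13 were higher on both CAF2 arrays than on the other 14 arrays of the series. The exceptions were Stxbp2 and Clu, for which the CAF3 and CAF4 arrays lay below the other 12.

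Several of the largest falls went below detection. Ndn, which encodes necdin, a growth suppressor, was at 5.10 and 4.79 in CAF2. CAF3 had 10.72 and 10.74, and CAF4 had 10.64 and 10.43. It was detected on 0 of 2 CAF2 arrays and on all of the other 14, between 10.26 and 11.05, and was at least 18.9-fold lower in CAF2 (adjusted p = 1.02e-08). Snrpn, which encodes a splicing protein, was at 4.62 and 4.90 in CAF2 and between 9.14 and 9.48 in CAF3 and CAF4, at least 7.67-fold lower (adjusted p = 2.44e-07). Gdf10, a secreted protein of the BMP family, was at 4.59 and 4.74 in CAF2 against 9.74 to 10.58 (at least 13.6-fold lower, adjusted p = 0.00335). Plac8, a small cysteine-rich protein, was at 5.10 and 5.41 against 10.16 to 11.03 (at least 17.8-fold lower, adjusted p = 7.9e-05). Mmp3, the matrix protease stromelysin 1, was at 4.66 and 4.79 against 8.87 to 11.65 (at least 10.9-fold lower, adjusted p = 0.00067). Cyp7b1, which hydroxylates oxysterols, was at 4.79 and 4.95 against 8.62 to 10.15 (at least 9.32-fold lower, adjusted p = 0.00175). In each of these 6 genes no CAF2 array reached detection, and the CAF2 arrays lay below all of the other 14.

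The 15 largest falls did not all have CAF2 as the line that stood apart. Grb10, an adaptor that restrains insulin and IGF receptors, and Dcn, which encodes the collagen-binding proteoglycan decorin, remained detected in CAF2 but lay below the other 14 arrays, by -3.98 (SE 0.39, adjusted p = 0.000189) and by -3.68 (SE 0.40, adjusted p = 0.000342). Draxin, an axon guidance protein that also antagonizes Wnt signals, was at least 2.78-fold lower and was likewise lowest in CAF2. In Csrp1, Cops8, H2-K1, H2-T23 and Inhbb, by contrast, the 4 CAF3 and CAF4 arrays lay above the other 12, CAF2 included. Wnt4, a Wnt ligand, was at least 3.07-fold lower in CAF2 and followed neither pattern, since CAF1 also had 5.05 and 4.95 beside 5.23 and 4.83 in CAF2. Of the 30 genes in both directions, 27 passed whichever of the 6 cultures was left out. Without CAF2 culture 1 the genes 4930486L24Rik, Cbr2 and Draxin did not pass. Of the 8 genes with several tested probes, every probe of 7 passed in the same direction; the second H2-T23 probe was lower by -1.28 and did not pass (adjusted p = 0.105).

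**Figure D2:**
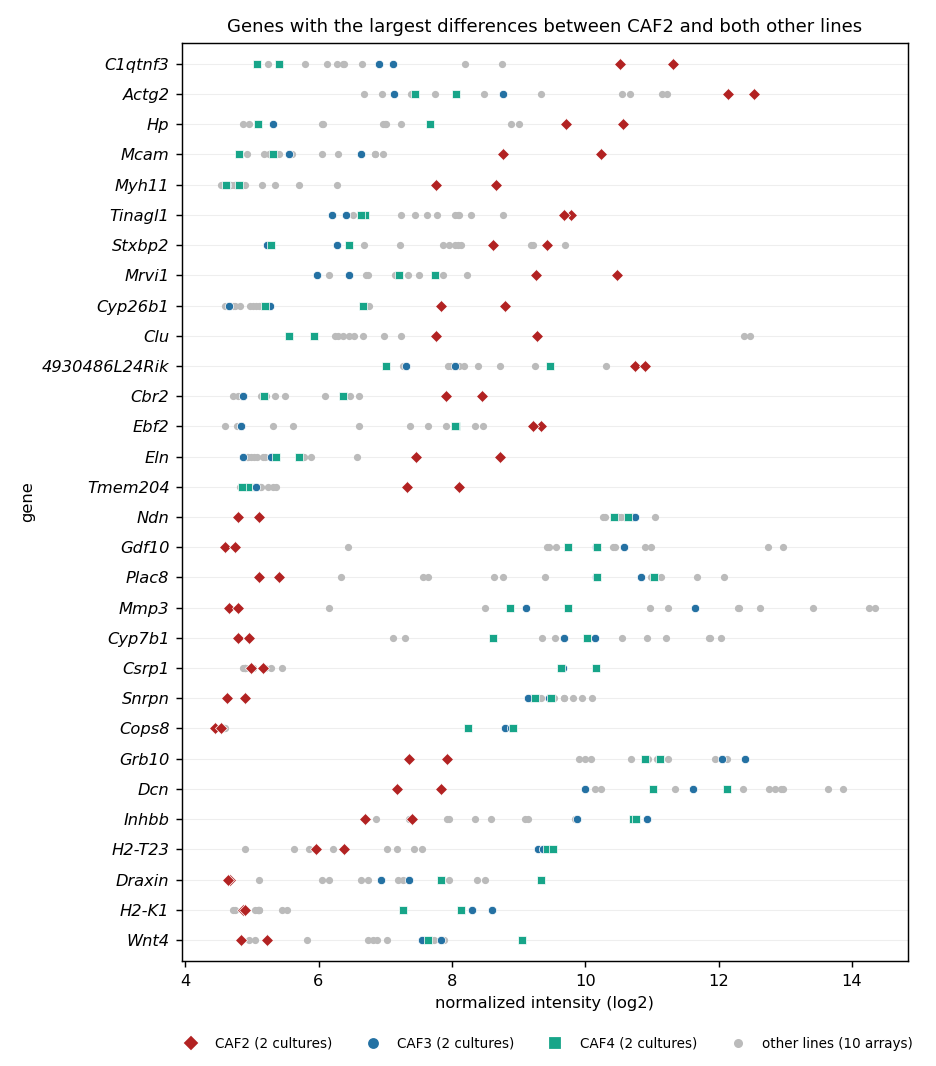
Normalized intensity (log2, horizontal axis) of the 15 genes with the largest rise and the 15 with the largest fall in CAF2, with each array a point: CAF2 red diamonds, CAF3 blue circles, CAF4 green squares, and the 10 arrays of other lines grey. Ndn and Snrpn are near 5 in CAF2 and near 9 to 11 on every other array, while Csrp1, Cops8 and H2-K1 are high in CAF3 and CAF4 alone.

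Ndn and Snrpn are imprinted in the mouse, are read from the paternal copy, and lie in the same imprinted region of chromosome 7. A list of 54 imprinted genes, chosen after the values of these genes had been seen, had 22 tested members, of which 6 were lower (27.3%, beside 3.82% of all tested genes) and 0 higher in CAF2. The 6 were Ndn, Snrpn, Grb10, Dcn, Igf2 and Igf2r, and all but Igf2 passed against each line. Whether each of the 6, Dcn in particular, is read from a single copy in these fibroblasts was not tested. Dcn also counts among the fibroblast identity and proteoglycan genes below. Igf2, a fetal growth factor, was at 9.13 and 7.14 in CAF2. CAF3 had 10.92 and 11.99 and CAF4 had 10.06 and 10.94, a difference of -2.85 (SE 0.55, adjusted p = 0.0107), which did not pass without CAF2 culture 2 (nor did that of Igf2r). Igf2r, a receptor that clears IGF2, was lower by -0.96 (SE 0.17, adjusted p = 0.00633). The 6 are on chromosomes 7, 11, 10 and 17, and the median over all 22 members was -0.31. Genes of the list with other values included Dlk1 at -1.10 (adjusted p = 0.12), Cdkn1c, Gnas and H13, none of which passed.

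Other tested genes of the region on chromosome 7 did not pass. In the gene order of RefSeq GRCm38.p6, Atp10a and Ube3a come before Snrpn, and Magel2 and Mkrn3 follow Ndn. Ube3a, which in most tissues is read from both copies, was at 5.25 and 6.02 in CAF2 and between 5.77 and 6.22 in CAF3 and CAF4, a difference of -0.32 (adjusted p = 0.514). Atp10a differed by -0.16 (adjusted p = 0.649). Mkrn3, also read from the paternal copy, was at 6.34 and 5.22 in CAF2 and at 7.81, 7.42, 6.67 and 5.36 in CAF3 and CAF4 (-1.04, adjusted p = 0.0611), so that the groups overlapped. Magel2 was detected on 0 of 6 arrays. Atp10a was detected on 4 of the 6, and Ube3a and Mkrn3 on 3 each. These genes are dim, and differences of dim probes are understated, so a change in them could have been missed.

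**Figure D3:**
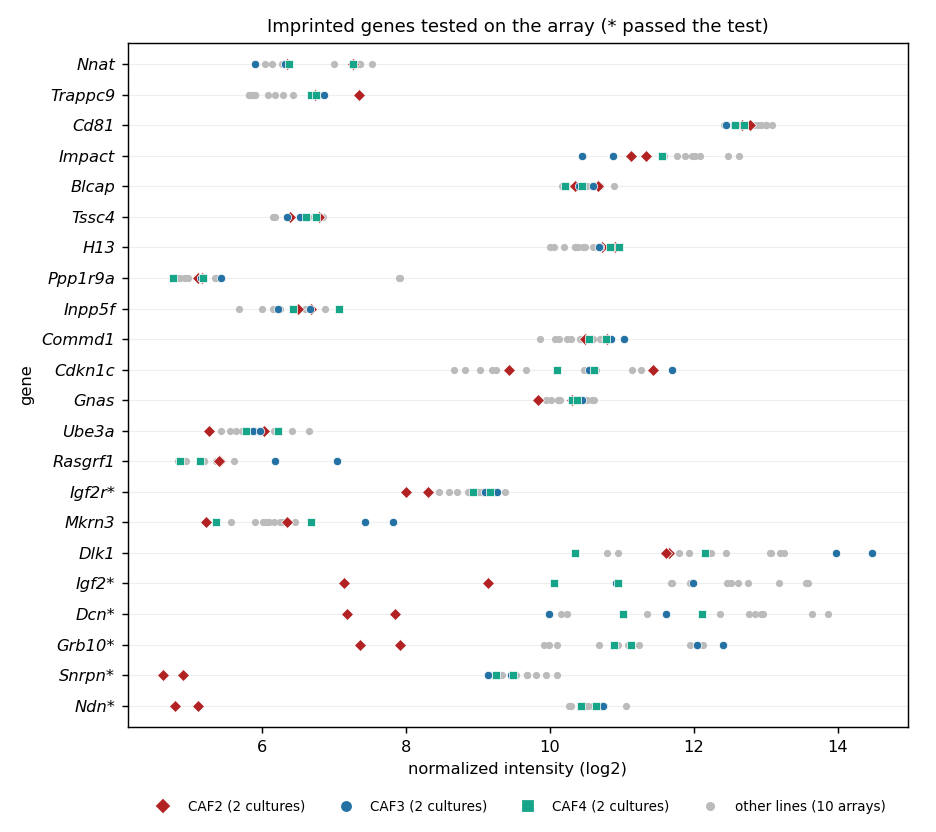
Normalized intensity (log2, horizontal axis) of the 22 tested imprinted genes, in the order of their difference, with each array a point and the lines marked as CAF2 (red diamonds), CAF3 (blue circles), CAF4 (green squares) and other lines (grey). The 6 genes that passed are starred; in Ndn, Snrpn, Grb10 and Dcn the CAF2 arrays lie to the left of every other array.

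The stretches upstream of Ndn and of the Snrpn start that lies farthest upstream are shown because both genes lost their signal in CAF2 within the same imprinted region. Each holds the 250 bases before the start, from RefSeq (GRCm38.p6), 5′ to 3′ on the strand of the gene, and the capitals mark the letters CGCATGCG, which are also the core of the consensus of the transcription factor NRF1 and read the same on both strands.
Ndn, chr7:62348027-62348276, plus strand: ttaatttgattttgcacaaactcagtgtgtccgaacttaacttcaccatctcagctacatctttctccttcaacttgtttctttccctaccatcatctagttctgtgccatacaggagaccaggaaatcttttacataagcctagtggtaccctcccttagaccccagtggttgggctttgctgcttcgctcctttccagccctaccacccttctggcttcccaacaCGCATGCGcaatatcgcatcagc
Snrpn, chr7:60450178-60450427, minus strand: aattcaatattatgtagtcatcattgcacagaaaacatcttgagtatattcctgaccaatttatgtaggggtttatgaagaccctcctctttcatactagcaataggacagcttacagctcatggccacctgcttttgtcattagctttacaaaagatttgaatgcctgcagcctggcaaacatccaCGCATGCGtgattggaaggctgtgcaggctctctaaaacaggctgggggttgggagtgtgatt
The letters were chosen after these sequences had been read. They occur in the Ndn window, in 3 of 4 Snrpn windows, in none of those of Magel2, Mkrn3, Ube3a, Atp10a, Grb10, Igf2 and Igf2r, and in 509 of 32851 mouse promoter windows (1.55%). The Snrpn window without them is that of the start farthest downstream (chr7:60005200-60005449). The other 3 resemble each other over long stretches, so they are not 3 separate occurrences. Which start is used in these lines was not tested.

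Of the gene groups, that of contractile genes had the most members higher in CAF2. Of 24 smooth muscle contractile genes and SRF targets, 17 were tested, 10 were higher (58.8%, beside 3.85% of all tested genes) and 0 lower in CAF2, and the median was 0.78 beside 0.00. The mean was higher in CAF2 for all 17. Tagln, which encodes the actin-bundling protein transgelin, was at 11.41 on both CAF2 arrays and at 9.34, 8.36, 9.64 and 8.83 in CAF3 and CAF4 (2.37, SE 0.42, adjusted p = 0.00649). As with Actg2, Tagln in AdAF1 (10.53 and 11.13) and CAF1 (10.24 and 10.25) also lay above CAF3 and CAF4. Vcl, which encodes vinculin of focal adhesions, was at 11.60 and 11.11 against 9.91 to 10.84 (1.04, SE 0.19, adjusted p = 0.00704). For Vcl, AdAF1 (10.34 and 10.14) and CAF1 (10.32 and 10.53) lay within the range of CAF3 and CAF4. Lmod1, an actin nucleator of smooth muscle, was higher by 1.29, the tropomyosins Tpm2 by 1.17 and Tpm1 by 1.07, the LIM protein Fhl2 by 0.94, the actin crosslinker Actn1 by 0.78 and Srf itself by 0.76. In all 10 genes both CAF2 arrays lay above the 4 others, which follows in part from their having passed (25.1% of all tested genes did not overlap, in either direction). Actg2, Myh11 and Tagln passed against each line. Mylk, the kinase that activates smooth muscle myosin, and Ppp1r14a, an inhibitor of myosin phosphatase, are outside the list and were chosen after their values were seen. Mylk was higher by 2.26 (SE 0.33), and Ppp1r14a was at least 3.26-fold higher (adjusted p = 0.000152). Mylk was not particular to CAF2, at 9.42 and 8.31 beside 9.11, 9.01, 10.14 and 8.95 in the normal lines. CAF3 (7.42 and 7.34) and CAF4 (6.12 and 5.54) lay below both. Mylk did not pass without CAF2 culture 1.

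Acta2, the smooth muscle alpha actin used as a myofibroblast marker, did not pass by any of its 4 probes. The brightest was at 15.84 on both CAF2 arrays and between 15.19 and 15.71 in CAF3 and CAF4, near the top of the scale, and differed by 0.41 (adjusted p = 0.481). The other 3 probes differed by 1.64, 1.62 and 1.49, with adjusted p of 0.0595, 0.0927 and 0.0512. Cytoskeletal Actb, Myh9, Zyx, Smtn, Cald1 and Cnn2 did not pass either. The count of 10 became 2 without CAF2 culture 1, 5 without CAF2 culture 2, 6 without CAF3 culture 2, 6 without CAF4 culture 1, 5 without CAF4 culture 2, 4 with median scaling and 4 against CAF4 alone (8 against CAF3 alone); Actg2 and Myh11 passed with each culture left out and with median scaling, while Tagln did not without either CAF2 culture (adjusted p up to 0.0724) nor Vcl without CAF2 culture 1 (adjusted p = 0.134).

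**Figure D4:**
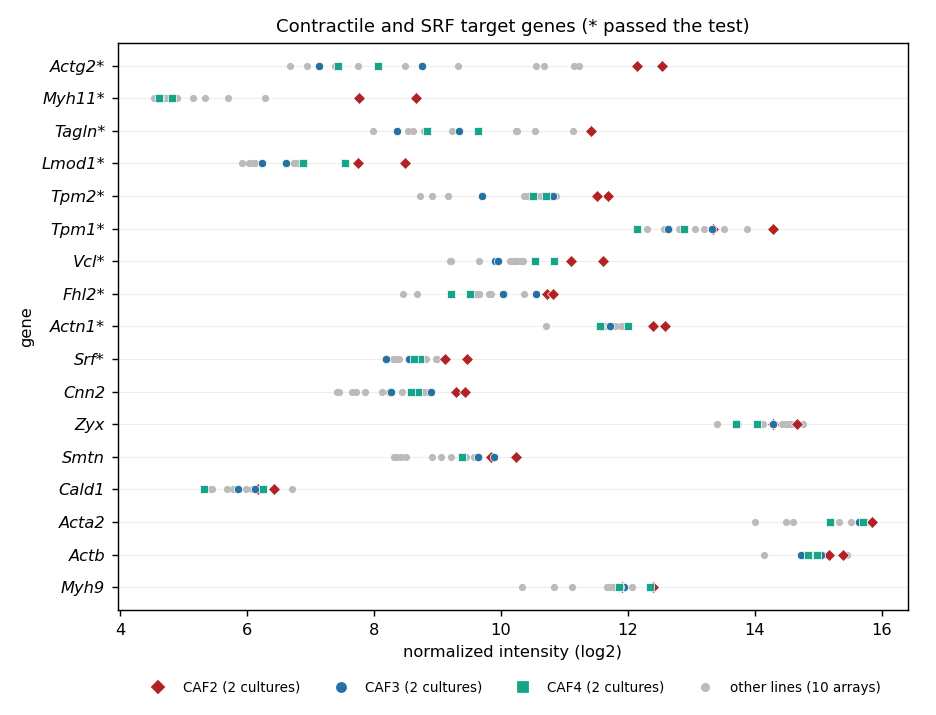
Normalized intensity (log2, horizontal axis) of the 17 tested contractile genes and SRF targets, in the order of their difference, with each array a point and the lines marked as CAF2 (red diamonds), CAF3 (blue circles), CAF4 (green squares) and other lines (grey). The 10 starred genes passed; Actg2 in CAF2 is at 12.53 and 12.14 and Acta2 is near 15 to 16 on the 6 arrays.

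Since SRF is a known regulator of this group, the upstream windows were searched for the CArG box, whose consensus reads the same on both strands. Of the 7 members that rose and have a window in the table, Srf, Fhl2 and Vcl hold a CArG box, and of all 13 tested members with a window 4 do (30.8%), the fourth being Cnn2, which did not pass. Of the 6067 tested genes with a window 85 do (1.4%), and among all 32851 windows 482 do (1.47%). The list was drawn up to include SRF targets, so its higher share follows in part from that choice and carries no test. The windows of Lmod1, Actn1, Tpm1, Tpm2 and Acta2 hold none in these 250 bases. Actg2, Myh11 and Tagln, the members that passed against each line, have no window and were not searched. The windows of the 3 genes that rose follow, from RefSeq (GRCm38.p6) with the CArG box in capitals; for Fhl2 the first of 2 starts is given.
Srf, chr17:46556163-46556412, minus strand: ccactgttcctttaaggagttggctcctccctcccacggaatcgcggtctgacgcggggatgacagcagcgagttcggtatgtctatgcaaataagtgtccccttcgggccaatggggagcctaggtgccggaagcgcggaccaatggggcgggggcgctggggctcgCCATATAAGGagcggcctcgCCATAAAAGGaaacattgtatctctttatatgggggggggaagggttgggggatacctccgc
Fhl2, chr1:43196762-43197011, minus strand: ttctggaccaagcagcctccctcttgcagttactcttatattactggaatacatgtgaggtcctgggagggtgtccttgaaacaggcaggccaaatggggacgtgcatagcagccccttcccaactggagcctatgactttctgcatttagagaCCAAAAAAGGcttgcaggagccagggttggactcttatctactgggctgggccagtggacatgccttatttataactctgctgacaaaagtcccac
Vcl, chr14:20929148-20929397, plus strand: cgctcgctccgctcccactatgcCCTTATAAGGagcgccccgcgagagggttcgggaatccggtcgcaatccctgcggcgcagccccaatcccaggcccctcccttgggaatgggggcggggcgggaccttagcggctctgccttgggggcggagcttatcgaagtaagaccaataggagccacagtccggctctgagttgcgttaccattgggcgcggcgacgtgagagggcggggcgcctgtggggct

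Markers of other contractile cells were also higher in CAF2. Of 10 pericyte markers on the array 5 were tested, and Mcam, Cspg4 and Notch3 were higher in CAF2 (60%, beside 3.85% of all tested genes). Cspg4, the NG2 proteoglycan, was at 7.35 and 6.79 in CAF2 and between 5.35 and 6.30 in CAF3 and CAF4 (1.25, SE 0.19, adjusted p = 0.00314). Notch3 overlapped, at 7.87 and 7.49 in CAF2 beside 7.92 and 7.63 in CAF3, with CAF4 at 5.63 and 5.85, so that its call (0.92, adjusted p = 0.0459) came from CAF4 alone; against CAF3 it was -0.10, and it did not pass with any of the 6 cultures left out (adjusted p up to 0.293). The summed intensity of the pericyte markers was 1270 to 2410 on the CAF2 arrays and 708 to 790 on the others, while Des, Abcc9, Higd1b and Kcnj8 were detected on none of the 6. Of 14 skeletal muscle markers 3 were tested and all 3 were higher: Acta1, the skeletal muscle alpha actin, at 11.05 and 9.09 against 4.61 to 9.15 (3.50, SE 0.76, adjusted p = 0.0192), the slow troponin Tnnt1, at least 1.59-fold higher, and the slow and cardiac troponin Tnnc1 by 1.16. The other 11, Myod1, Myog and Ckm included, were detected on none of the 6 arrays. The summed intensity of all 14, Acta1 included, was 1220 to 2860 on the CAF2 arrays and 483 to 1090 on the others. The part of either cell type in the contractile result was not tested. Without CAF2 culture 1 Cspg4 did not pass (adjusted p = 0.0731) and the pericyte count became 1, and the skeletal muscle count became 1 without either CAF2 culture or without CAF3 culture 2. Of the other cell types, 6 to 7 of 14 adipocyte markers were detected on the CAF2 arrays and 4 to 6 on the others; Adipoq, the hormone adiponectin, was detected on both CAF2 arrays and on 0 of 4 others without passing (2.19, adjusted p = 0.073), and Fabp4, Plin1 and Lep were detected on none. Endothelial Pecam1, Vwf, Kdr and Cdh5 were detected on none of the 6.

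The chemokines that passed were lower in CAF2. Of 22 tested chemokines and inflammatory cytokines, 5 were lower (22.7%, beside 3.82% of all tested genes) and 0 higher, and the median was -0.74. Ccl7, a chemokine that recruits monocytes, was at 8.43 and 9.69 in CAF2 and between 10.50 and 11.40 in CAF3 and CAF4 (-1.94, SE 0.24, adjusted p = 0.000704). Ccl2, the main monocyte attractant, was at 5.44 and 6.61 against 7.16 to 8.95 (-2.33, SE 0.32, adjusted p = 0.00167). Ccl8, of the same family, was at 6.64 and 6.11 against 7.88 to 10.21 (-2.72, SE 0.48). Cxcl14 and Cxcl10 were lower by -1.39 and -1.01 without being detected in CAF2. A second Cxcl14 probe, detected on none of the 6 arrays, was lower by -0.39 and did not pass (adjusted p = 0.509). Cxcl14 also did not pass with the deposited values, with its probes averaged or against CAF4 alone. Ccl2 and Ccl7 passed against each line. Cxcl12, a stromal chemokine that holds CXCR4-bearing cells, was at 4.87 and 4.77 in CAF2, not detected, and between 7.70 and 8.84 in CAF3 and CAF4, a difference that did not pass (-3.30, SE 0.91, adjusted p = 0.0507). Il6, Lif and Cxcl5 were detected on none of the 6 arrays. The count became 3 without CAF2 culture 1, 2 without CAF2 culture 2, 3 without CAF3 culture 1 and 3 without CAF4 culture 2, and was 8 with the 6 arrays alone or with median scaling, and 3 against CAF4 alone or with no detection filter.

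Members of the IGF axis that passed were lower as well, with 4 of 12 tested members lower (33.3%, beside 3.82% of all tested genes), 0 higher and a median of -0.22. Igf1 was at 5.66 and 6.08 in CAF2, detected on neither array, and at 10.14, 8.62, 8.28 and 7.19 in CAF3 and CAF4, at least 4.48-fold lower (adjusted p = 0.0176). The binding protein Igfbp5 was at 6.79 and 8.42 in CAF2, beside 8.25 and 10.23 in CAF3, with CAF4 at 12.44 and 12.15 (-3.16, SE 0.47, adjusted p = 0.00238), so that CAF2 overlapped CAF3 but not CAF4. Igf2 and Igf2r, given above with the imprinted genes, were the others. Of the other growth factors, Fgf10, a ligand of epithelial branching, was higher by 1.37 (SE 0.25) and Vegfc, a lymphatic growth factor, lower by -1.68 (SE 0.33). Vegfc was at 6.53 and 7.94 in CAF2, beside 7.43 and 8.67 in CAF4, with CAF3 at 9.51 and 10.05. Neither Fgf10 nor Vegfc passed against CAF4 alone. The IGF count became 2 without CAF2 culture 1, 1 without CAF2 culture 2 and 2 against CAF4 alone. Fgf10 (adjusted p = 0.121) and Vegfc (0.195) did not pass without CAF2 culture 1.

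Matrix genes moved in both directions. Among 22 tested proteases and inhibitors, 5 were lower (22.7%, beside 3.82% of all tested genes) and 1 higher. Beside Mmp3, the lower ones were Mmp2 by -1.67, Mmp10 by -1.48, Timp1 by -0.55 and Serpinf1, the anti-angiogenic factor PEDF, at 14.05 and 13.92 in CAF2 against 15.06 to 15.45 (-1.18, SE 0.16, adjusted p = 0.00171). Timp3, an inhibitor of metalloproteinases held in the matrix, was the higher one, at 12.44 and 12.16 against 10.27 to 11.29 (1.63, SE 0.30, adjusted p = 0.00815). The count of 5 became 2 without CAF2 culture 1 or CAF3 culture 2, and 3 without CAF2 culture 2, CAF3 culture 1 or CAF4 culture 1. It was 2 with the 6 arrays alone or against CAF3 alone and 3 with no detection filter, and Timp1 did not pass with any culture left out (adjusted p up to 0.328). Timp3 did not pass without either CAF2 culture (adjusted p up to 0.0847). Of 16 proteoglycan genes 2 were lower and 1 higher (18.8% in all, beside 7.67% of all tested genes). Dcn and Fmod, which both control collagen fibril growth, were lower, Fmod by -2.46 (SE 0.43). Fmod was at 6.74 and 6.02 in CAF2, beside 7.84 and 7.72 in CAF4, with CAF3 at 9.93 and 9.83. It did not pass against CAF4 alone. The heparan sulfate proteoglycan Gpc6 was higher by 1.26 (SE 0.18). Of 10 elastic fibre genes, Eln was higher and the microfibril protein Mfap2 lower (20% in all, beside the same 7.67%). Mfap2 was at 7.69 and 5.64 in CAF2, beside 8.29 and 8.02 in CAF4, with CAF3 at 10.91 and 10.94 (-2.87, SE 0.41). Tgm2, which crosslinks matrix proteins, was at 10.91 and 11.41 in CAF2 against 8.53 to 9.52 (2.13, SE 0.29, adjusted p = 0.00148). The collagen receptor subunit Itga1 was at least 2.23-fold higher and the integrin activator Fermt2 higher by 0.95. Without CAF2 culture 1 Gpc6 (adjusted p = 0.0567), Itga1 (0.0529), Fermt2 (0.106) and Fmod (0.0776 at most, also without CAF2 culture 2) did not pass. Fibrillar collagens did not pass: Col1a1 differed by -0.41 (adjusted p = 0.557), Col1a2 by -0.10 and Col3a1 by -0.74. Lrrc15, a surface protein known from carcinoma-associated myofibroblasts and chosen here after its values were seen, was not detected in CAF2 and was at least 2.78-fold lower (adjusted p = 0.000227). It was at 10.16 and 10.53 in the adenoma line AdAF1, at 10.04 and 10.27 in CAF1, at 5.00 and 5.01 in HpAF1 and not above 5.80 in the normal lines.

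Of 12 fibroblast identity genes tested, 2 were lower (16.7%, beside 3.82% of all tested genes), Dcn and Pdpn. Pdpn, the mucin-like podoplanin, was at 11.89 and 12.08 in CAF2 and between 12.77 and 13.40 in CAF3 and CAF4 (-1.13, SE 0.15, adjusted p = 0.00141). The other 10 did not pass, among them Vim at 0.12 (SE 0.18), the PDGF receptors Pdgfra at 0.15 (SE 0.27) and Pdgfrb at 0.77 (SE 0.22), and Thy1 at 0.64 (SE 0.23). Lum, the proteoglycan lumican, was detected on neither CAF2 array and on all 4 others, between 6.82 and 8.08, and did not pass (adjusted p = 0.0963).

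In the Wnt pathway 3 of 17 tested members were lower and 1 higher (23.5% in all, beside 7.67% of all tested genes). Besides Wnt4, Axin2, a feedback target induced by Wnt signals, was at 5.09 and 4.86 in CAF2 and between 6.43 and 7.62 in CAF3 and CAF4, at least 1.59-fold lower (adjusted p = 0.00259). Wnt5a was lower by -0.79 on the mean of both lines, but stood at 8.92 and 8.86 in CAF2 between CAF4 (8.23 and 8.50) and CAF3 (11.32 and 10.69). Fzd2, a Wnt receptor, was higher by 0.78, but did not pass without the block (adjusted p = 0.0554), with the 6 arrays alone, with median scaling, against either line alone or with any culture but CAF4 culture 1 left out (adjusted p up to 0.351). Of the 6 fits with a culture left out, Wnt5a passed in that without CAF3 culture 2 and not in the others (adjusted p up to 0.202). In TGF-beta and BMP signalling 2 of 24 were lower and 1 higher (12.5% in all, beside the same 7.67%). The lower ones were Gdf10 and Inhbb, the beta B subunit of activin and inhibin. The higher one, the TGF-beta co-receptor Eng, was higher against CAF3 (2.75) and lower against CAF4 (-0.63). Inhbb was at 7.40 and 6.69 in CAF2 and between 9.88 and 10.93 in the others (-3.53, SE 0.48, adjusted p = 0.00151). Of 16 YAP and TAZ targets 2 were higher (12.5%, beside 3.85% of all tested genes), Ankrd1 and Crim1. Ankrd1, a stretch-responsive nuclear protein, was at 13.00 and 11.67 against 7.91 to 10.54 (3.26, SE 0.61, adjusted p = 0.00895). Crim1 was higher by 1.39, while the classical targets Ccn1 and Ccn2 did not pass (0.62 and 0.57). Ankrd1 did not pass without either CAF2 culture (adjusted p up to 0.115) or against CAF3 alone (adjusted p = 0.0554), nor Crim1 without a culture of CAF2 or CAF3 (adjusted p up to 0.177) or against CAF3 alone (adjusted p = 0.166). Of the acute-phase and complement genes, Hp and Clu were higher and the complement component C2 was lower by -1.81 (SE 0.22). In retinoid metabolism, Cyp26b1 and Cyp1b1 (1.68) were higher and the receptor Rxra was at least 1.19-fold lower. Without CAF2 culture 1 Eng (adjusted p = 0.0551), Rxra (0.144) and Cyp1b1 (0.0977 at most, also without CAF2 culture 2) did not pass.

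Positional and patterning genes differed in both directions. Of 18 HOX genes 4 were higher and 2 lower (33.3% in all, beside 7.67% of all tested genes). Hoxa2 was at 8.53 and 7.39 in CAF2 against 5.55 to 6.54 (2.07, SE 0.30, adjusted p = 0.00231), and Hoxa5 was higher by 1.24. Hoxc9 was at 10.90 and 10.40 in CAF2, beside 9.88 and 9.73 in CAF3, with CAF4 at 6.81 and 7.08, and Hoxc6 (12.30 and 11.47) lay with CAF3 (12.05 and 11.45), so that most of either difference came from CAF4. Hoxd10 was detected in CAF4 alone of the 3 lines. Of 33 developmental transcription factors 7 were higher and 3 lower (30.3% in all, beside the same 7.67%). Dlx1 was at 9.67 and 9.20 against 7.44 to 8.11 (1.77, SE 0.24, adjusted p = 0.00151). Foxc1, a regulator of mesenchyme and vessels, was at 9.61 and 8.80 against 7.21 to 7.68 (1.76, SE 0.29, adjusted p = 0.00455). Hoxa2 (adjusted p = 0.0609), Hoxc6 (0.0883) and Foxc1 (0.0978) did not pass without CAF2 culture 1. The higher counts became 1 for HOX genes and 2 for the factors without CAF2 culture 1; the latter became 3 without CAF2 culture 2 and 4 without CAF3 culture 1 or CAF4 culture 2, 2 with median scaling and 4 without the culture block.

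For some of the genes lower in CAF2, CAF3 and CAF4 lay above every other line. Of 13 MHC class I and antigen processing genes 4 were lower in CAF2 (30.8%, beside 3.82% of all tested genes). H2-K1, a classical class I heavy chain, was detected on none of the 12 arrays outside CAF3 and CAF4, where it was at 8.30, 8.60, 7.27 and 8.13, and it was at least 3.2-fold lower in CAF2 (adjusted p = 4.63e-05). H2-T23, the non-classical molecule Qa-1, was at 5.96 and 6.38 in CAF2 and between 9.29 and 9.51 in CAF3 and CAF4 (-3.23, SE 0.27). B2m, the shared light chain, was bright throughout and differed by -0.33 (adjusted p = 0.399). The chaperone Calr passed only through CAF4 (14.87 and 14.66, beside 11.46 and 11.20 in CAF2), and H2-M3 was lower by -0.98. The count of 4 became 2 without either CAF2 culture. On chromosome 1, Cops8, a subunit of the COP9 signalosome, at least 4.97-fold lower in CAF2, and Csrp1, a LIM protein of the actin cytoskeleton, at least 10.4-fold lower, were likewise detected in CAF3 and CAF4 alone, and Thap4, chosen after its values were seen, was at least 2.42-fold lower. H2-K1, Cops8 and Csrp1 each rest on 1 tested probe. Whether these probes and that of Thap4 match the transcripts of every line equally well was not tested, so a value below detection there may not show a low level of the transcript.

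By chromosome, chromosome 14 stood out in the number of rises. Of its 240 tested genes, 54 were higher (22.5%, beside 3.85% of all genes) and 3 lower in CAF2, and their median difference was 0.43, with 0.59 against CAF3 and 0.30 against CAF4. The median was 0.44 in culture 1 and 0.45 in culture 2. Against the normal lines the chromosome 14 median was 0.40 for CAF2, -0.11 for CAF3 and 0.09 for CAF4. The genes that passed against each line there included Clu, Ebf2, Gpc6 and Fermt2. Smaller shifts upward on chromosome 10 (30 of 382 higher, median 0.28), chromosome 13 (25 of 257, median 0.25) and chromosome 18 (13 of 172, median 0.23) came mainly from CAF3. Their medians were 0.47, 0.42 and 0.48 against CAF3, and 0.08, 0.04 and 0.00 against CAF4. On chromosome 10, 52 genes were higher against CAF3 alone and 5 against CAF4 alone, and on chromosome 13 these counts were 43 and 6. Shifts downward were found on chromosome 2 (50 of 595 lower, 8.4%, median -0.27), chromosome 5 (34 of 510, median -0.21) and chromosome 19 (20 of 279, median -0.23). With median scaling, which moved all genes by -0.23, the medians relative to that shift were 0.44 on chromosome 14, 0.28 on chromosome 10 and -0.26 on chromosome 2. The count of 54 became 13 with that scaling, 10 without CAF2 culture 1, 21 without CAF2 culture 2, 33 without CAF3 culture 1, 30 without CAF3 culture 2 and 30 without CAF4 culture 2. The count of 50 on chromosome 2 became 5 and 17 without culture 1 and 2 of CAF2, 24 and 28 without those of CAF3 and 29 and 25 without those of CAF4. Against CAF4 alone the counts were 21 on chromosome 14 and 18 on chromosome 2. Without CAF2 culture 1 the counts became 2 on chromosome 10, 3 on chromosome 13, 6 on chromosome 5 and 2 on chromosome 19. Without the other cultures they lay between 11 and 24, 10 and 22, 15 and 29, and 8 and 14, and median scaling gave 9, 9, 28 and 14. Against CAF4 alone, 8 genes were lower on chromosome 5 and 9 on chromosome 19. Whether copy number differs was not tested.

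**Figure D5:**
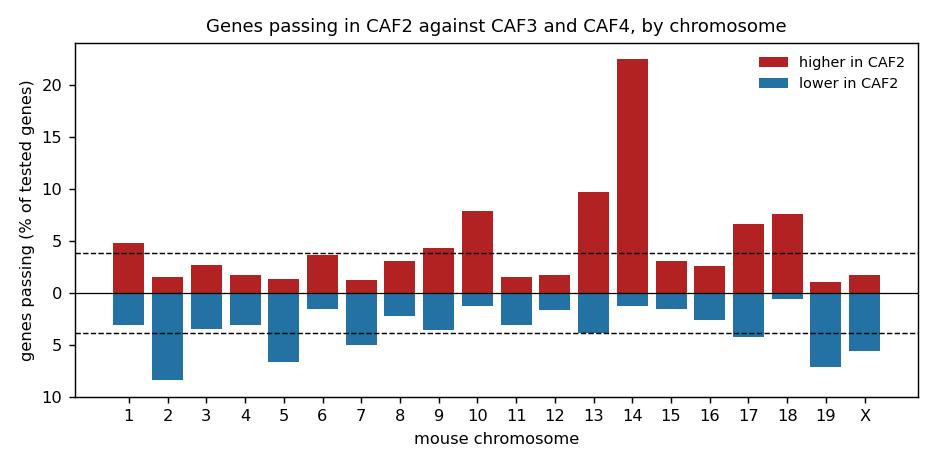
Percent of tested genes (vertical axis) on each mouse chromosome (horizontal axis) that passed as higher in CAF2 (red bars, upward) or lower in CAF2 (blue bars, downward) against CAF3 and CAF4; the dashed lines give the percent over all tested genes, 3.85% higher and 3.82% lower. Chromosome 14 reaches 22.5% on the higher side and chromosome 2 reaches 8.4% on the lower side.

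Several gene groups had few or no members that passed. All 27 tested DNA replication and mitosis genes had a lower mean in CAF2, with a median of -0.65, but only Tyms, which makes thymidylate, passed (-1.25, SE 0.28, adjusted p = 0.0227). Of 28 interferon response genes 25 had a lower mean and 1, Rsad2, passed, with a median of -0.32 (-0.67 against CAF3 and -0.09 against CAF4). Among 23 cholesterol and fatty acid synthesis genes 0 passed in limma, and the lowest adjusted p was 0.0713 (Fads2). An unadjusted limma p under 0.05 was found for 5 of the 23, beside 2526 of all 10453 tested probes. The same held for 13 of the 27 DNA replication and mitosis genes, 5 of the 28 interferon response genes and 6 of the 21 p53 targets. Of 21 tested p53 targets 1 passed (4.76%, beside 7.67% of all tested genes), Cdkn1a, an inhibitor of cyclin-dependent kinases. Cdkn1a was at 12.73 and 12.29 against 11.29 to 12.11 (0.80, SE 0.14, adjusted p = 0.00689). Its other probes did not pass (adjusted p = 0.137 and 0.0718), nor did this probe without CAF2 culture 1 (adjusted p = 0.126), with median scaling or against CAF3 alone (adjusted p = 0.0563). Tyms did not pass without CAF2 culture 1, CAF3 culture 1 or CAF4 culture 2 (adjusted p up to 0.265), and Rsad2 not with any of the 6 cultures left out (adjusted p up to 0.196). Epha3 and Rspo3 were detected on none of the 6 arrays.

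The normal lines were set beside the genes that passed against each line. A group counted as outside when all its arrays lay above, or all below, the 4 normal arrays. This asks it of 2 arrays for CAF2 and of 4 for CAF3 and CAF4, so the shares of the groups are not alike in strictness. Of the 158 genes, 101 (63.9%) were outside in CAF2 but not in CAF3 and CAF4 as a group, beside 19.5% of all tested genes. CAF3 or CAF4 alone may lie outside in some of the 101. In 25 genes (15.8%, beside 2.44%) CAF3 and CAF4 were outside and CAF2 was not. In 21 genes (13.3%, beside 0.362%) CAF2 lay on the opposite side of the normal arrays from CAF3 and CAF4, and in 8 neither lay outside. Plac8 is of the opposed kind: it was at 5.10 and 5.41 in CAF2, between 6.34 and 9.40 in the normal lines and between 10.16 and 11.03 in CAF3 and CAF4. These shares describe genes already chosen for their difference and carry no test.

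The cultures of a line were also averaged, so that lines were the replicates, with 2 residual degrees of freedom. In that fit 10 probes passed and 1032 had an unadjusted p under 0.05. They were those of Ndn, Snrpn, Csrp1, Cops8, Actg2, Myh11, Cyp7b1 and H2-T23, a probe of Arl3 whose brighter probe did not pass, and a probe without a gene name, which was higher in CAF2 by 5.55, more than any named gene. Of the 30 genes with the largest changes, the other 22 did not pass in that fit, with adjusted p up to 0.543. Among the 588 tested probes without a gene name, 22 were higher and 29 lower in CAF2, beside 3.7% and 3.93% of all tested probes.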

How the data were processed

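RNA of 16 cultures was measured on Illumina bead arrays, 1 array each. The authors deposited an intensity per probe, per the file headers not normalized, with a detection p-value that steps by 0.00125. A second deposited table holds an intensity that by its values was quantile normalized (largest spread of quantiles 0.225) and served as an alternative. The sources used here name no scanner software.

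neqc (offset 16) gave background-corrected, quantile-normalized log2 values, with limma 3.58.1 in R 4.3.3. Probes detected at p under 0.01 on at least 2 arrays were tested (10453 of 25697, 40.7%); a gene stands for its brightest probe. Dim probes are compressed toward background, which understates their differences. Symbols follow the platform table, updated through RefSeq GRCm38.p6 (23962 probes matched, 1719 without a symbol). The fit held all 16 arrays with a mean per line and the culture number as a block (residual degrees of freedom 7, prior 3.87), and Benjamini-Hochberg adjustment ran over all probes, two-sided. The numbers come from the titles, and same-numbered cultures deviated together in the 3 lines compared (culture differences correlated at 0.316, 0.653 and 0.425), though not in all 8 lines (-0.202 to 0.653). On simulated data with these arrays, 99 of 100 probes changed by 2 (log2) and 55 of 100 changed by 1 were recovered. There were 8 false calls. The simulation gave CAF2, CAF3 and CAF4 a common mean apart from the changed probes, and drew normal noise with the fitted variances. Its figures describe data that meet the model and are not the error rate of the calls reported here.

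Named genes are the 15 largest differences in each direction among genes that passed in the mean and against each line, detected on every array of the higher side, up to 4 members of each of 45 gene lists by p, all fibroblast identity genes and a fixed set of single genes. Members and lists were chosen with earlier results of these data known. Alternatives were no block, the 6 arrays alone, lines as replicates, the deposited table, offset 50, median scaling, other detection filters, averaged probes, array weights, each culture left out and each line alone as comparator.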

Additional observations from a re-analysis of the deposited data

Results flagged for a closer look

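Among the 199 named genes, 10 had 1 of the 4 CAF3 and CAF4 arrays far from the other 3, about the 1 in 20 that chance gives. Culture 2 of CAF4 was high for Hp (7.67, the others 5.09 to 5.31) and for Diaph3, an actin-nucleating formin (8.38, the others 6.49 to 6.59). Culture 1 of CAF4 was high for Myh11 (4.81, not detected), Clu (5.93, not detected), Csrp1 (10.16), Serpinf1 (15.45) and Pdia4 (10.22), and low for Hspd1 (10.05). CAF3 was high for Cox4i1 in culture 2 (12.72) and low for Vim in culture 1 (13.55).

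In 4 named genes CAF2 lay on one side of all 4 normal arrays and CAF3 and CAF4 on the opposite side, and the difference between them passed: Clu (2.87, adjusted p = 0.000272), Plac8 (-5.30, adjusted p = 7.9e-05), Inhbb (-3.53, adjusted p = 0.00151) and the respiratory chain subunit Cox8a (-0.50, adjusted p = 0.0459). Cox8a did not pass in 12 of 18 other settings, among them no block (adjusted p = 0.0504) and each of the 6 cultures left out (adjusted p up to 0.222).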

How the results depend on the processing

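The 798 probes that passed became 647 without the culture number as a block, 997 with the 6 arrays alone, 916 with the deposited normalized values, 560 with median scaling and 10 with lines as replicates, which has 2 residual degrees of freedom; the genes numbered 455 without the block and 8 with lines as replicates. Without the block, 644 of the 647 probes were among the 798. With 1 culture left out, which leaves a line with a lone culture assumed to vary like the others, the probes numbered 178 to 632 and the genes 121 to 448. Against CAF3 alone 1006 probes and against CAF4 alone 385 probes and 280 genes passed. The 229 probes that passed against each line became 197 without the block and 366 with the 6 arrays alone, and 89 to 151 with 1 culture left out. The 399 probes between CAF3 and CAF4 became 316 without the block, 616 with array weights and 83 to 339 with 1 culture left out. Of 104 named genes that passed, 40 passed whichever culture was left out, and 59 did not without CAF2 culture 1. Notch3 turned to -0.10 against CAF3 alone, Eng to -0.63 and Wnt5a to 0.53 against CAF4 alone. Dim signal limits the falls: where CAF2 was not detected only a bound is known. The cause of these changes was not tested.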
